A study of Mus musculus with 4 samples.

Results

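The genes described here are 10 regulators of hair growth: the homeobox genes Msx1, Msx2, Dlx2 and Dlx3, the forkhead gene Foxn1, the ectodysplasin pathway genes Edar and Edaradd, the secreted antagonist gene Sostdc1, the hairless gene Hr and the vitamin D receptor gene Vdr. They were taken by symbol from the 23847 rows of the deposited expression table, where each of the 10 stands on a single row. The table holds bulk RNA-seq of whole back-skin epidermis at postnatal day 20, with 2 libraries from wild-type mice (labelled WT, Irx5+/+) and 2 from mice given as knockouts (labelled Irx5KO, Irx5-/-). Irx5 belongs to the Iroquois genes, which encode DNA-binding homeodomain proteins. The series title links Irx5 to DNA damage repair and to activation of hair follicle stem cells, so the comparison asks which epidermal transcripts differ between the genotypes. The labels do not state the strain, the sex or the design of the allele. All 4 samples were treated alike, with 0.25% trypsin for 2 h at 34 °C, and the epidermis was then separated mechanically and filtered. The labels call the cells primary epithelial cells.

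Hair follicles cycle between growth, regression and rest. In growth, proliferating matrix cells at the base of the follicle give rise to the hair shaft and to the inner root sheath around it, and Msx2, Dlx3 and Foxn1 act in these lineages. Ectodysplasin signals through its receptor Edar and the adaptor Edaradd to the transcription factor NF-kB, and the pathway is best known from the formation of follicle placodes. Hr is a nuclear corepressor that binds the vitamin D and thyroid hormone receptors among others, and mice that lack either Hr or Vdr lose their coat after the first hair and do not regrow it.

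In Irx5KO epidermis 4 of the 10 genes were higher than in WT (Sostdc1, Dlx3, Hr and Msx2) and Vdr was lower. Foxn1 and Edaradd were tested and did not pass, and Msx1, Dlx2 and Edar were below the level needed for a test. Levels are in FPKM, the number of sequenced fragments per kilobase of a transcript relative to all that mapped, and are given as mean ± SD of n = 2 libraries. A change is the Irx5KO mean less the WT mean of log2(FPKM + 1), a scale that understates the change of weakly expressed genes. A row was tested if it had at least 1 FPKM in at least 2 libraries, which left 11643 rows. A call means an adjusted p under 0.05 in limma, a linear model with a shared estimate of the spread, with Benjamini-Hochberg adjustment over all these rows. Among all rows tested, 26.9% were called higher and 9.22% lower, 36.1% in either direction, and the median change of all rows was 0.26. Scaling by the median of ratios moved that median to -0.00 and gave 1226 higher and 1613 lower rows. The values as deposited gave 3127 and 1073. Under the median of ratios Sostdc1, Dlx3 and Vdr kept their calls, and Hr and Msx2 lost theirs. The tested genes of the set all had at least 1 FPKM in all 4 libraries, so no member was tested because of one genotype alone. Their median change was 0.65, and 6 of the 7 changes lay above the median of all rows.

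Irx5 itself was at 17.4 and 16.4 FPKM in the WT libraries and at 10.01 and 10.08 FPKM in the Irx5KO libraries, 59.5% of the WT mean (Irx5 change -0.70, adjusted p = 0.0117 in limma), and that call was lost without Irx5KO replicate 1 (adjusted p = 0.103) or replicate 2 (adjusted p = 0.0899) and in TPM (-0.48, adjusted p = 0.0577). The Irx5 transcript was thus lower but not absent in the libraries labelled Irx5KO. Since the design of the allele is not stated, this level does not show whether the gene product was lost, and Irx5KO is used here as the name of the label. The 5 sex-linked transcripts examined split the genotypes completely. Xist, which marks an inactive X chromosome, was at 33.9 and 36.6 FPKM in WT mice and under 0.07 FPKM in Irx5KO mice, and the Y-linked gene Eif2s3y was under 0.05 FPKM in WT mice and at 70.9 and 75.7 FPKM in Irx5KO mice. Sex and genotype therefore cannot be told apart in any comparison here. The summed level of 12 immediate-early genes, which tissue dissociation is known to induce, was 11102 to 12199 FPKM in WT mice and 2383 to 4604 FPKM in Irx5KO mice, and that of 6 Langerhans cell markers 766 to 1189 FPKM in WT mice and 361 to 481 FPKM in Irx5KO mice. Of these 6 markers 3 were called lower and 3 did not pass, and Epcam is also counted among the keratinocyte markers. The part of either list in the results was not tested. Summed dermal fibroblast markers stood at 1.93 to 4.37 FPKM and endothelial markers at 0.418 to 1.21 FPKM. The sum of 7 keratinocyte markers was 14022 to 15663 FPKM in WT mice and 11189 to 11388 FPKM in Irx5KO mice. Of these 7 markers, 1 was called higher (Trp63), 1 lower (Krt14) and 5 did not pass (Krt5, Krt1, Krt10, Epcam and Dsp). The largest fall in FPKM was that of Krt14, whose mean dropped from 5009 (WT) to 1548 (Irx5KO). The means of Krt5 and Epcam were also lower, but those of Krt1, Krt10, Dsp and Trp63 were higher. The lower sum thus does not stand for the keratinocyte markers as a set. The Krt14 call was lost with no filter, for example, and the Trp63 call under the median of ratios. Melanocyte markers summed to 10.6 and 25.9 FPKM in WT mice and to 9.15 and 7.74 FPKM in Irx5KO mice. Of the 3 melanocyte markers tested, 1 was called lower and 2 did not pass. T cell markers summed to 50.8 to 120 FPKM over the libraries. Sebaceous gland markers summed to 185 and 249 FPKM in WT mice and to 196 and 194 FPKM in Irx5KO mice, and none passed. The libraries were thus mainly keratinocyte in these sums but also held RNA of immune, pigment and sebaceous gland markers. In bulk RNA, fewer cells of a type and less RNA per cell cannot be told apart. The steps of the low FPKM values gave an estimated depth at which 1 FPKM stands for 52.2 to 60.1 fragments per kilobase of transcript. The labels give the replicates as separate samples, the p-values measure only the spread between them, and with 2 libraries on each side the smallest p of an exact permutation test is 0.333.

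The levels of the 10 genes spanned several orders of magnitude. In WT the order was Hr at 112 ± 3.68, Vdr at 70.6 ± 7.05 and Sostdc1 at 19.6 ± 6.07 FPKM, then Edaradd, Dlx3 and Foxn1 at 3.52 ± 0.944, 3.46 ± 0.629 and 2.79 ± 1.28 FPKM. Msx2 followed at 1.35 ± 0.0788 FPKM, Edar at 0.653 ± 0.270 FPKM, Dlx2 at 0.129 ± 0.0339 FPKM and Msx1 at 0.0945 ± 0.0287 FPKM. The libraries of Edaradd, Dlx3 and Foxn1 overlapped with each other, as did those of Dlx2 and Msx1, and the other neighbours in this order were separate. In Irx5KO the libraries of Vdr and Sostdc1 overlapped, and Dlx3 stood above Edaradd and Foxn1 without overlap. Hr was the most abundant of the set in each library, where it lay above 94.8% to 97.6% of all rows tested.

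**Figure D1:**
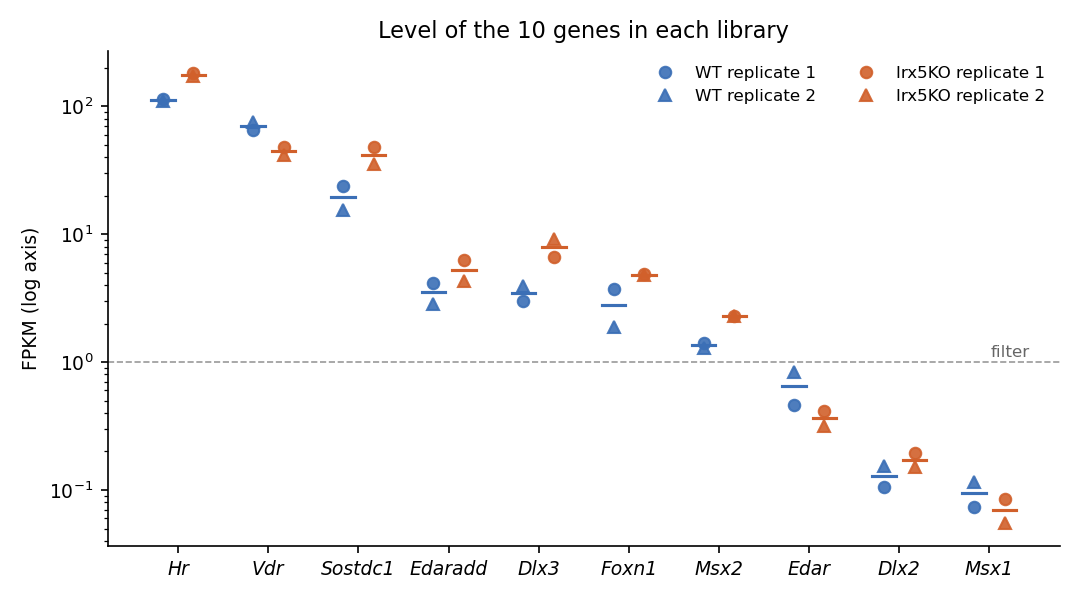
FPKM (log axis) of the 10 genes in each of the 4 libraries, ordered by the WT mean. Points are single libraries, short bars are the means of 2 libraries and the dashed line is the level of 1 FPKM used as the filter. The Irx5KO libraries lie above both WT libraries for 6 genes and below them for Vdr and Edar, and the groups overlap for Dlx2 and Msx1.

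Both Irx5KO libraries lay above both WT libraries for 6 of the 10 genes and below them for 2. The 6 were all among the 7 genes tested, and the 2 were Vdr and the untested Edar. Among all rows tested these shares were 54.3% and 18.0%, so separate groups alone were common in this table. The 95% intervals of the changes of Dlx3 and Sostdc1 lay above the median of all rows and that of Vdr lay below it. Those of Hr, Msx2, Foxn1 and Edaradd included it.

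**Figure D2:**
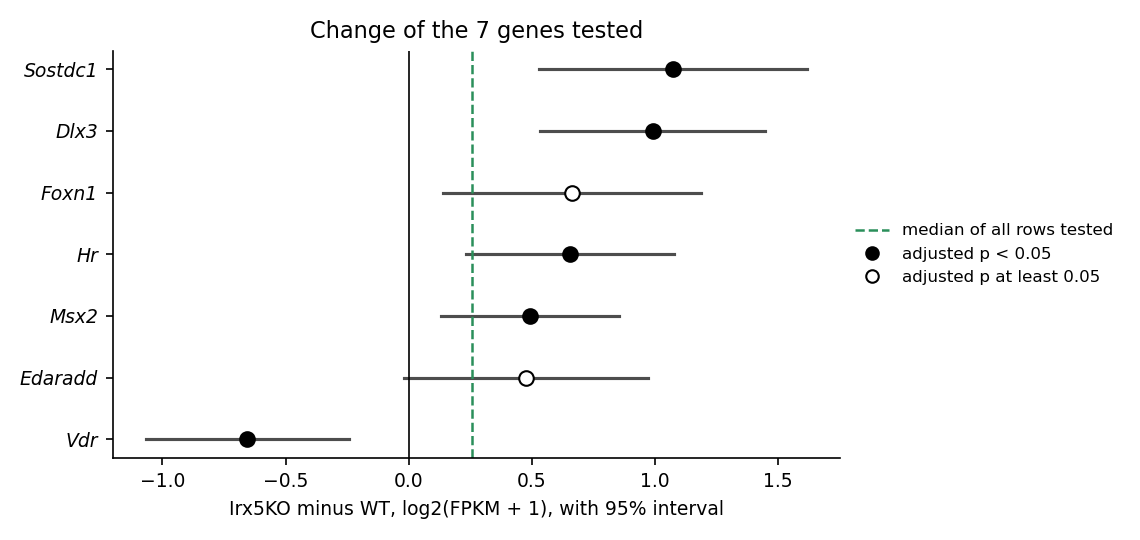
Change of the 7 genes tested, Irx5KO minus WT, in log2(FPKM + 1), with the 95% interval from limma. Filled points passed the adjusted p of 0.05, open points did not, and the dashed line is the median of all rows tested at 0.26. Sostdc1 and Dlx3 show the changes of greatest size at 1.07 and 0.99, and Vdr is the one gene below 0.

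Of the homeobox factors, Dlx3 changed most. Dlx3, a distal-less factor of the matrix, shaft and inner root sheath that is also used in suprabasal epidermis, lies on chromosome 11 at 95120119 to 95125296 (GRCm38). In WT mice it stood at 3.01 (replicate 1) and 3.90 FPKM (replicate 2), and in Irx5KO mice at 6.63 and 9.17 FPKM. Both Irx5KO libraries were well above both WT libraries, and the mean was 228% of WT. The Dlx3 change was 0.99 (SE 0.202, 95% interval 0.53 to 1.45, adjusted p = 0.0068 in limma). The call for Dlx3 held when any 1 library was left out, at an adjusted p of 0.00103 to 0.0449, and was lost under quantile normalization (0.69, adjusted p = 0.056) and with no filter on level (adjusted p = 0.0662).

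Msx2, a muscle segment homeobox factor of matrix and precortex whose loss in mice gives cyclic hair loss, lies on chromosome 13 at 53466884 to 53473074. Msx2 was at 1.41 and 1.30 FPKM in WT mice and at 2.31 FPKM in both Irx5KO libraries. The replicates were close to each other and the groups did not overlap, at 171% of the WT mean. The Msx2 change of 0.49 (SE 0.159, 95% interval 0.13 to 0.85) passed at an adjusted p = 0.0396 in limma. This call did not hold for Msx2 without WT replicate 2 (adjusted p = 0.0786), without Irx5KO replicate 1 (0.208 adjusted) or replicate 2 (0.197 adjusted), or under the median of ratios (0.30, adjusted p = 0.175), quantile normalization (0.25, adjusted p = 0.226) and with no filter (adjusted p = 0.0809).

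Msx1 and Dlx2, the relatives of Msx2 and Dlx3 in this set, were barely detected. Msx1 (chromosome 5, 37820485 to 37824583) read 0.0742 and 0.115 FPKM in WT mice and 0.0853 and 0.0550 FPKM in Irx5KO mice, about 7 to 12 fragments in WT and 5 to 8 in Irx5KO by the estimated depth. Dlx2 (chromosome 2, 71543408 to 71546754) read 0.105 and 0.153 FPKM in WT mice and 0.195 and 0.151 FPKM in Irx5KO mice. For both genes the groups overlapped, so no difference was detectable at this depth. Of the other genes of these families, Msx3 and Dlx6 were listed at 0 in all 4 libraries, Dlx1 and Dlx4 stayed below the filter, and Dlx5 alone was tested. Dlx5 was at 5.37 and 4.87 FPKM in WT mice and 3.08 and 4.44 FPKM in Irx5KO mice and did not pass (-0.38, adjusted p = 0.153 in limma), although it passed as lower with quantile normalization (adjusted p = 0.0379) and the median of ratios (adjusted p = 0.042). Dlx5 was thus the more abundant of Dlx3 and Dlx5 in both WT libraries and Dlx3 in both Irx5KO libraries.

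Foxn1, the forkhead factor that is mutated in nude mice and acts in shaft differentiation, lies on chromosome 11 at 78357577 to 78386558. Foxn1 measured 3.69 and 1.89 FPKM in WT mice and 4.86 and 4.80 FPKM in Irx5KO mice. The Irx5KO libraries agreed closely and lay above both WT libraries, but the WT libraries were far apart. The change of Foxn1 was 0.66 (SE 0.232, 95% interval 0.14 to 1.19) and narrowly missed the threshold (adjusted p = 0.0517 in limma). Without WT replicate 1 the Foxn1 change was 1.01 (adjusted p = 0.00445) and without WT replicate 2 it was 0.31 (adjusted p = 0.165), so the value depends on which WT library is used, and in TPM Foxn1 passed as well (0.97, adjusted p = 0.00496).

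Sequence upstream of the start was taken from RefSeq (GRCm38.p6), whose table held a promoter for 7 of the 10 genes: Msx1, Msx2, Dlx2, Foxn1, Edar, Edaradd and Vdr. The 250 bases before each start were searched on both strands for the palindrome TAATTA (a core bound by Msx and Dlx homeodomains), the site ACANNTGT (known for Iroquois proteins of Drosophila), the hexamer AGGTCA (bound by vitamin D, thyroid hormone and retinoid receptors), the Lef and Tcf core CTTTGA (at the end of Wnt signalling) and the AP-1 site TGANTCA (bound by Fos and Jun). No match overlapped another. The homeodomain core TAATTA was present in front of 2 of the 7 genes, Msx2 and Foxn1, against 4.84% of 32851 promoters. The receptor hexamer (Edaradd) and the Lef and Tcf core (Edar) were each present in front of 1 gene, against 14.02% and 13.8% of all promoters. The Iroquois and AP-1 sites, found in 6.31% and 6.75% of all promoters, were in front of 0 of the 7. The matches are shown because each links a member to a factor class of this set or its pathway, with the matched letters in capitals and 30 bases in all. They are matches of letters and show no binding.
Msx2, chr13:53472950-53472979, minus strand: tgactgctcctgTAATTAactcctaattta
Foxn1, chr11:78386620-78386649, minus strand: aagctgatatcaTAATTAttggctcaccca
Edaradd, chr13:12520556-12520585, minus strand: tgctcacccaggAGGTCAggcagtaactaa
Edar, chr10:58675912-58675941, minus strand: aggcccaacttgCTTTGAtagaagcaagac
GENCODE M21 annotates the stretch in front of Msx2 as exon, because one of its transcripts starts further upstream than the RefSeq start.

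The receptor and the adaptor of the ectodysplasin pathway had values on opposite sides of WT in Irx5KO, but neither difference reached a call. Edar, the receptor, lies on chromosome 10 at 58600789 to 58675654 and read 0.462 and 0.843 FPKM in WT mice and 0.417 and 0.316 FPKM in Irx5KO mice. These values stand for about 86.1 and 174 fragments in WT and 77.3 and 56.8 in Irx5KO by the estimated depth. Edar was below the filter in every library, both Irx5KO libraries lay below both WT libraries, and with no filter its change was -0.27 (adjusted p = 0.238 in limma). Edaradd, which couples the receptor to NF-kB signalling, lies on chromosome 13 at 12472632 to 12520438. It read 4.18 and 2.85 FPKM in WT mice and 6.25 and 4.33 FPKM in Irx5KO mice. The groups were separated by a gap smaller than the spread within either of them, and the Edaradd change of 0.48 (SE 0.218, 95% interval -0.02 to 0.97) did not pass (adjusted p = 0.116 in limma). Edaradd passed without WT replicate 1 (0.69, adjusted p = 0.0412) and in TPM (0.75, adjusted p = 0.0226).

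Further down the pathway the signalling genes split. Of 11 other ectodysplasin and Edar signalling genes, all tested, 4 rose, 2 fell and 5 did not pass, with a median change of 0.36 against 0.26 over all rows. Calls over all rows tested were 26.9% higher and 9.22% lower. The falls were of the NF-kB end of the pathway and were of greater size than any change in the 10 genes. Nfkbia, the inhibitor of NF-kB that NF-kB itself induces, fell from 662 ± 56.8 to 120 ± 39.6 FPKM (-2.49, adjusted p = 3.13e-04 in limma), and Rela, the p65 subunit, fell from 81.1 ± 24.9 to 23.1 ± 1.86 FPKM (-1.74, adjusted p = 9.04e-04 in limma). Ikbkg, the regulatory subunit of the kinase that frees NF-kB, rose from 3.85 ± 0.234 to 8.27 ± 0.655 FPKM (0.93, adjusted p = 0.00387 in limma). Nfkbia, Rela and Ikbkg passed in the same direction under all 12 alternatives tried. Eda2r, the receptor of the second ectodysplasin form, rose from 1.29 ± 0.00635 to 2.30 ± 0.0319 FPKM (0.53, adjusted p = 0.03 in limma), a call that held for Eda2r under 5 of 11 alternatives and was lost without WT replicate 2 (adjusted p = 0.054), Irx5KO replicate 1 (0.178 adjusted) or Irx5KO replicate 2 (0.151 adjusted). The ligand Eda was at 1.21 ± 0.0646 and 1.84 ± 0.121 FPKM and did not pass (adjusted p = 0.104). Over the list, 1 gene was still higher under the median of ratios, under quantile normalization and without either Irx5KO replicate, and 2 without WT replicate 2. Immediate-early genes fell beside Nfkbia and Rela, with 10 of the 12 called lower (the adjusted p of Fos was 0.0891 in limma, with levels of 1645 and 1211 FPKM in the WT libraries against 552 and 1089 FPKM in Irx5KO mice), and their part in these falls was not tested.

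Sostdc1 had the greatest change of the set in log2(FPKM + 1), at 1.07 against 0.99 for Dlx3. As a share of the WT mean Dlx3 rose more, to 228% against 214%. With a pseudocount of 0.1 the change of Dlx3 was also the greater, at 1.16 against 1.11. Sostdc1 encodes a secreted protein that binds BMP ligands and the Wnt co-receptors Lrp4, Lrp5 and Lrp6, and lies on chromosome 12 at 36314139 to 36318452. Sostdc1 measured 23.9 and 15.3 FPKM in WT mice and 48.3 and 35.6 FPKM in Irx5KO mice. Both Irx5KO libraries were higher than both WT libraries, at 214% of the WT mean, with a wide spread inside each genotype. The Sostdc1 change was 1.07 (SE 0.240, 95% interval 0.53 to 1.62, adjusted p = 0.00986 in limma). The call for Sostdc1 held without any 1 library (0.77 to 1.38, adjusted p of 5.53e-04 to 0.0381) and under every scaling, and was lost with no filter on level (adjusted p = 0.0793).

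The partners of Sostdc1 changed less evenly. Of 7 listed genes, 6 were tested, 1 rose, 1 fell and 4 did not pass, with a median change of 0.26, as for all rows. Calls over all rows tested were 26.9% higher and 9.22% lower. Bmp2, a ligand that is active in differentiating follicle and epidermis, fell from 27.6 ± 0.0865 to 9.95 ± 0.692 FPKM (-1.38, adjusted p = 5.89e-04 in limma), under all 12 alternatives too. Lrp5 rose from 19.3 ± 0.343 to 27.5 ± 1.24 FPKM (0.49, adjusted p = 0.0444 in limma), a call that held for Lrp5 under 5 of 12 alternatives and was lost, for example, without WT replicate 2 (adjusted p = 0.0569) or either Irx5KO replicate (0.233 and 0.318 adjusted) and under the median of ratios (0.395 adjusted). Lrp4, through which Sostdc1 is known to act in teeth and skin appendages, read 27.5 and 16.9 FPKM in WT mice and 33.5 and 28.4 FPKM in Irx5KO mice and did not pass (adjusted p = 0.127). The other BMP ligands tested did not fall with Bmp2. Bmp7 (0.29, adjusted p = 0.193 in limma) and Bmp4 (0.24, adjusted p = 0.446 in limma) had changes above 0 and did not pass.

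Hr and Vdr, whose products bind each other, were the most abundant of the set and changed in opposite directions. Hr lies on chromosome 14 at 70552212 to 70573548. Hr measured 115 and 109 FPKM in WT mice and 181 and 173 FPKM in Irx5KO mice, so the groups were far apart relative to the spread within them, at 158% of the WT mean. The Hr change was 0.65 (SE 0.186, 95% interval 0.23 to 1.08, adjusted p = 0.025 in limma). The model uses the spread of all genes of such a level, and the call for Hr was lost without WT replicate 2 (adjusted p = 0.0573), Irx5KO replicate 1 (adjusted p = 0.203) or Irx5KO replicate 2 (adjusted p = 0.139) and under the median of ratios (0.35, adjusted p = 0.183).

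Vdr, the receptor for the hormonal form of vitamin D, lies on chromosome 15 at 97854425 to 97910630. Vdr measured 65.7 and 75.6 FPKM in WT mice and 47.6 and 41.3 FPKM in Irx5KO mice. Both Irx5KO libraries were lower than both WT libraries, and the mean was 63.0% of WT. The Vdr change was -0.66 (SE 0.182, 95% interval -1.07 to -0.24, adjusted p = 0.0228 in limma). The call for Vdr was lost without WT replicate 2 (adjusted p = 0.0534), Irx5KO replicate 1 (0.0872 adjusted) or Irx5KO replicate 2 (0.221 adjusted), in TPM (-0.42, adjusted p = 0.0798) and with no filter (adjusted p = 0.0591). Under the median of ratios the Vdr change was -0.96 (adjusted p = 0.00907). The sequence before the RefSeq start of Vdr is shown because Vdr is the one member that fell. This stretch lies inside the gene as GENCODE M21 annotates it, whose 5′ end is further upstream. None of the motifs searched is in its 250 bases, of which the 236 outside annotated exons are printed (chr15:97908311-97908546, minus strand, 5′ to 3′), and 61.2% of the 250 bases are G or C against a median of 52.4% over all promoters.
Vdr: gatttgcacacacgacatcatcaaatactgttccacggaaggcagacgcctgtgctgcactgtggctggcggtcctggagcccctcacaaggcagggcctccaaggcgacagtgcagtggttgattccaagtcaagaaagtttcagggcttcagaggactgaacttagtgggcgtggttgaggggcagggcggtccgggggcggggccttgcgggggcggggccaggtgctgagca

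Of 10 partners and enzymes of the vitamin D receptor, 6 were tested, 1 rose and 5 did not pass (median change 0.37). Across all rows tested the median change was 0.26, with 26.9% called higher and 9.22% lower. The gene that rose was Rxra, the retinoid X receptor with which Vdr pairs on DNA. Rxra went from 52.8 ± 4.71 to 77.3 ± 4.03 FPKM (0.54, adjusted p = 0.0415 in limma), and its call held under 5 of 12 alternatives, being lost for example without WT replicate 2 (adjusted p = 0.0867) or either Irx5KO replicate (0.303 and 0.184 adjusted) and under the median of ratios (0.320 adjusted). Cyp24a1, the vitamin D-degrading enzyme that active Vdr induces, was listed at 0 in 3 libraries and at 0.00533 FPKM in WT replicate 2. Cyp27b1, which makes the active hormone, was at 0.297 ± 0.117 FPKM in WT mice and 0.219 ± 0.0049 FPKM in Irx5KO, below the filter.

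Of the 8 nuclear partners of the hairless protein reported here, all tested, 1 rose and 7 did not pass (median change 0.06). All rows tested had a median change of 0.26, with 26.9% called higher and 9.22% lower. Thra, a thyroid hormone receptor, rose from 18.8 ± 1.42 to 32.8 ± 0.526 FPKM (0.77, adjusted p = 0.0084 in limma), and its call was lost without Irx5KO replicate 1 (0.0593 adjusted) or replicate 2 (0.0651 adjusted) and under the median of ratios (0.0587 adjusted). Rora, another nuclear receptor, went from 16.6 ± 3.73 to 11.4 ± 1.09 FPKM and did not pass (-0.48, adjusted p = 0.0823), although it passed as lower with quantile normalization (adjusted p = 0.0452), the median of ratios (adjusted p = 0.0331) and without WT replicate 1 (adjusted p = 0.0144).

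**Figure D3:**
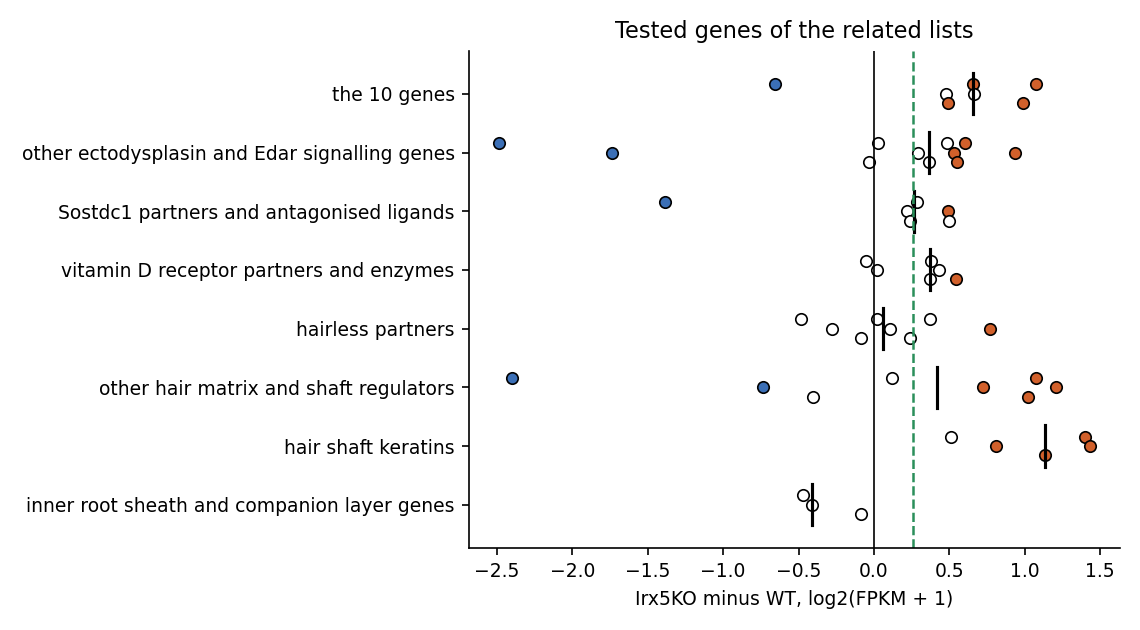
Changes of the tested genes of each related list, Irx5KO minus WT, in log2(FPKM + 1). Orange points were called higher, blue points lower and open points did not pass; the black bar is the median of the list and the dashed line the median of all rows at 0.26. Nfkbia, Ovol1, Rela and Bmp2 stand apart on the low side, and the hair shaft keratins lie at 0.51 to 1.43. Of these keratins, Krt33a (1.14) and Krt36 (1.43) reached the filter in the Irx5KO libraries alone. A gene drawn on those terms can only lie on the high side.

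Ratios between genes of the same library are not altered by scaling each library with a single factor (quantile normalization can alter them), and these were set out for pairs of members and partners chosen after their values were seen, with no test. The ratio of Hr to Vdr was 1.75 and 1.45 in WT and 3.80 and 4.18 in Irx5KO, with an Irx5KO mean 2.50 times that of WT. The ratio of Rxra to Vdr was 0.855 and 0.654 in WT and 1.68 and 1.80 in Irx5KO. The order of receptor and partner thus turned over, with Vdr above Rxra in both WT libraries and below it in both Irx5KO libraries. The ratio of Sostdc1 to the BMP ligand gene Bmp2 was 0.869 and 0.555 in WT and 4.62 and 3.76 in Irx5KO, with an Irx5KO mean 5.89 times that of WT. This ratio is particular to Bmp2, since the other BMP ligands tested, Bmp4 and Bmp7, did not fall. The ratio of Sostdc1 to Lrp4 was 0.868 and 0.909 in WT and 1.44 and 1.26 in Irx5KO. The ratio of Dlx3 to Msx2 overlapped between the genotypes, at 2.14 and 3.01 in WT and 2.87 and 3.97 in Irx5KO.

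**Figure D4:**
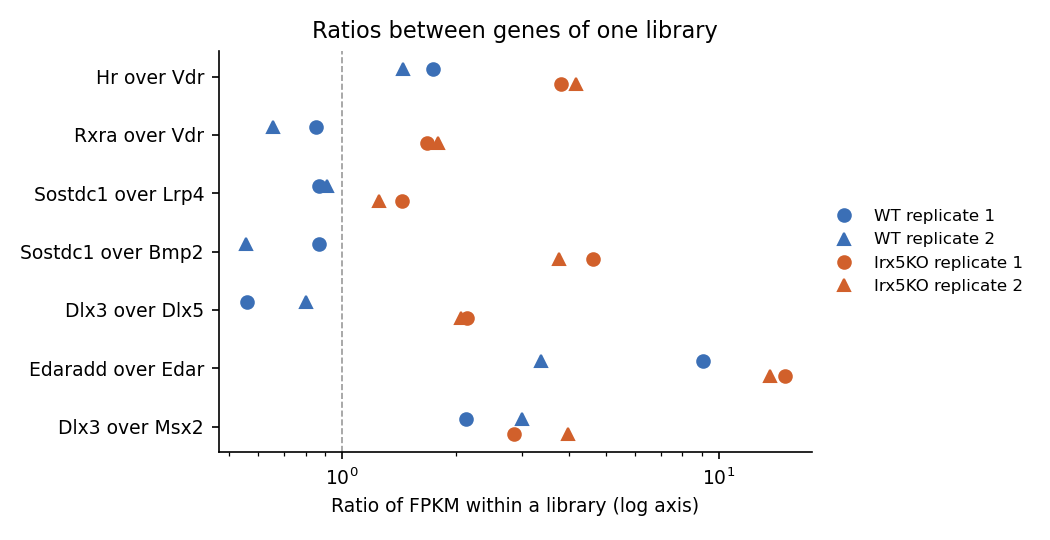
Ratio of FPKM between pairs of genes within a library (log axis), with circles and triangles for replicates 1 and 2. The Irx5KO libraries lie to the right of both WT libraries for each pair drawn except Dlx3 over Msx2, where they overlap. The ratio of Hr to Vdr is 1.45 and 1.75 in WT and 3.80 and 4.18 in Irx5KO.

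Other regulators of matrix and shaft went both ways. Of 14 listed genes 8 were tested, 4 rose, 2 fell and 2 did not pass (median change 0.42). Over all rows tested, 26.9% were called higher and 9.22% lower, and the median change was 0.26. Gata3, a factor of the inner root sheath and of differentiating epidermis, rose from 42.5 ± 9.28 to 98.3 ± 2.99 FPKM (1.21, adjusted p = 0.00276 in limma). Foxq1, a forkhead gene of the shaft medulla, rose from 6.05 ± 0.134 to 13.8 ± 0.960 FPKM (1.07, adjusted p = 0.00201 in limma), and Lhx2, a stem cell factor, from 9.84 ± 0.769 to 21.0 ± 0.559 FPKM (1.02, adjusted p = 0.00246 in limma). Ovol1, a zinc finger repressor needed for normal shafts and epidermal differentiation, fell from 125 ± 11.7 to 23.3 ± 7.16 FPKM (-2.40, adjusted p = 1.70e-04 in limma). Gata3, Foxq1, Lhx2 and Ovol1 passed in the same direction under all 12 alternatives. Hoxc13, the homeobox gene of the hair shaft, was higher (0.72, adjusted p = 0.0211 in limma) and lost its call without WT replicate 1 (0.0577 adjusted) or Irx5KO replicate 2 (0.192 adjusted), under the median of ratios (0.0985 adjusted) and quantile normalization (0.152 adjusted) and with no filter (0.105 adjusted). Prdm1, a zinc finger repressor, was lower (-0.74, adjusted p = 0.048 in limma), a call that held for Prdm1 under 5 of 12 alternatives. It was lost without WT replicate 2 (0.182 adjusted) or Irx5KO replicate 1 (0.194 adjusted), with no filter (0.185 adjusted), in TPM (0.0877 adjusted), with a minimum mean of 5 FPKM (0.0595 adjusted), with no trend (0.0519 adjusted) and with a pseudocount of 0.1 (0.0508 adjusted). Other genes of the list were near the floor. Shh was listed at 0 in 3 libraries and at 0.00746 FPKM in Irx5KO replicate 1, and Lef1 stayed at 0.191 to 0.438 FPKM. Foxi3, Fgf5, Trps1 and Dsg4 were also below the filter.

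The hair shaft keratins stood higher in Irx5KO at low levels. Their 13 genes summed to 30.9 and 21.6 FPKM in WT mice and to 52.5 and 42.2 FPKM in Irx5KO mice. Krt32 alone made up most of each sum, at 25.0 and 17.4 FPKM in WT mice and 33.1 and 27.4 FPKM in Irx5KO mice. Krt32 did not pass (0.51, adjusted p = 0.0867 in limma). Of the 5 keratins that were tested 4 rose, where 26.9% of all rows tested were called higher. However, Krt33a and Krt36 reached the filter in the Irx5KO libraries alone, so the count of 4 leans to increases by construction. Krt84 rose from 1.53 ± 0.107 to 5.73 ± 1.19 FPKM (1.40, adjusted p = 9.36e-04 in limma), under all 11 alternatives that could test it. Krt31 rose from 1.13 ± 0.522 to 2.70 ± 0.706 FPKM (0.81, adjusted p = 0.0211 in limma). Its call was lost under the median of ratios (0.0649 adjusted), quantile normalization (0.0787 adjusted) and with no filter (0.113 adjusted). The Krt31 call was also lost without WT replicate 2 or Irx5KO replicate 1. The inner root sheath and companion layer genes did not follow. Their sum was 15.8 and 14.9 FPKM in WT mice and 9.91 and 13.3 FPKM in Irx5KO mice, and of the 3 tested none passed, with 2 of them lower under the median of ratios and quantile normalization.

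**Figure D5:**
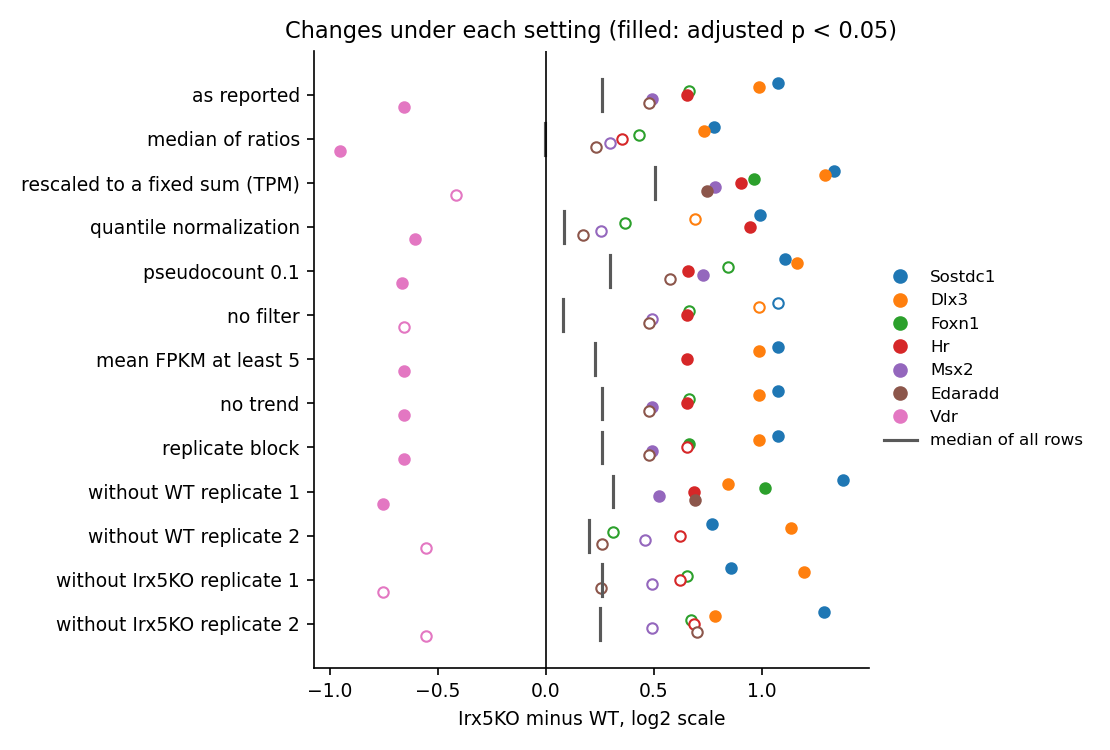
Change of each of the 7 tested genes (Irx5KO minus WT, log2 scale) under the reported setting and the 12 alternatives. Filled points passed an adjusted p of 0.05 and open points did not; the grey bar is the median of all rows in that setting. Each gene keeps its direction in each setting that could test it, and Sostdc1 runs from 0.77 to 1.38.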

How the data were processed

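The values are FPKM, as deposited by the authors in a single table with a column per library. The submitters' processing notes name Bowtie2, DESeq2 and mm10 without a role. How alignments became FPKM, and with which annotation, is not given in the sources used here. Strand-specific counting is not stated. GENCODE M21 (GRCm38) places no other annotated gene over any of the 10. Counts were not used, and no count model was run. Depth was estimated from genes with 1 annotated transcript: taking fragments of 200 bases, 68.4% to 70.2% of low values (up to 10 fragments) lay within 0.1 of a whole number, where 20.0% would by chance. Fragments per gene use the longest transcript.

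Rows with at least 1 FPKM in at least 2 of 4 libraries were tested with limma 3.58.1 (R 4.3.3) on log2(FPKM + 1), 2-sided, letting the prior variance follow the mean level. The test was also run on simulated libraries with independent normal noise and few changed rows, a setting that cannot check the scaling of the real libraries. For a listed symbol with several rows, the row of highest mean was used. The 10 genes and the lists were chosen with earlier results of these data known. An item of the list of hairless partners is not reported here, and the counts and median of that list leave it out. Genes named beside the 10 are Irx5, Xist, Eif2s3y, Fos, genes below the filter and up to 4 tested genes of smallest p per list. Bmp4, Eda, Hoxc13, Prdm1 and Krt32 were chosen after their values were seen. The keratinocyte markers are each named. Epcam is named as a gene of 2 marker lists. Positions and sequences are 1-based on GRCm38. No gene was named for likeness to a member, since 4 libraries in 2 groups give no measure of it. Alternatives were other scalings, no filter, a pseudocount of 0.1, a minimum mean of 5 FPKM, no trend, the replicate block and leaving out each library.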

Additional observations from a re-analysis of the deposited data

How the results depend on the processing

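No gene of the set changed direction under any of the alternatives that could test it, but the counts of calls depended on scaling, filter and library. Scaled by the median of ratios, 1226 rows were higher and 1613 lower, and 2 of the 10 genes were higher. Rescaling to TPM gave 5577 higher rows and 0 of the 10 genes lower. Quantile normalization gave 1516 higher rows and 2 of the genes higher. With no filter 1289 rows were higher and 712 lower, with 1 of the 10 genes higher (Hr) and 0 lower. A mean of at least 5 FPKM gave 1898 higher rows. Leaving out single libraries gave 1457 to 4048 rows higher and 725 to 1275 lower, and 2 to 6 of the genes higher and 0 to 1 lower. The cause of these shifts was not tested. With a replicate block in the model 3301 rows were higher and 1166 lower, and 4 of the genes were higher and 1 lower, with Foxn1 passing (adjusted p = 0.00555 in limma) and Hr not (adjusted p = 0.0543). The labels do not say what the replicate numbers share, and the deviations of same-numbered libraries correlated at -0.0674 across genes. With 2 libraries a genotype, the spread of each gene rests mainly on that of all genes. Depth limits Msx1 and Dlx2, which rest on an estimated 5 to 24 fragments a library.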

Other observations

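The 9 bulge and outer root sheath genes, which mark the part of the follicle that persists through rest, were all tested, and 4 rose and 2 fell (median change 0.43 against 0.26 over all rows). Of all rows tested, 26.9% were called higher and 9.22% lower. Lhx2 is among the 4 that rose and is also counted among the matrix and shaft regulators above. Sox9, a factor of bulge and outer root sheath, fell from 74.5 ± 19.8 to 26.9 ± 5.23 FPKM (-1.42, adjusted p = 0.00243 in limma), and Nfatc1, a factor of quiescent bulge cells, from 23.8 ± 5.34 to 13.1 ± 0.655 FPKM (-0.80, adjusted p = 0.0138 in limma). The call for Sox9 held under all 12 alternatives, and that for Nfatc1 was lost without Irx5KO replicate 1 (adjusted p = 0.0743) and with no filter (adjusted p = 0.0691). Tbx1, a factor of bulge quiescence, rose from 7.12 ± 0.568 to 11.3 ± 0.606 FPKM (0.60, adjusted p = 0.0234 in limma), a call that held for Tbx1 under 7 of 12 alternatives. It was lost without Irx5KO replicate 1 (0.209 adjusted) or replicate 2 (0.118 adjusted), under the median of ratios (0.161 adjusted) and quantile normalization (0.151 adjusted) and with no filter (0.0644 adjusted). The count that rose was 1 without Irx5KO replicate 1, under the median of ratios and with no filter. It was 2 without Irx5KO replicate 2 or WT replicate 1, with quantile normalization, a pseudocount of 0.1, no trend or a minimum mean of 5 FPKM, and 4 to 6 under the other alternatives.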
